A study of Mus musculus with 8 samples.

Results

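The genes examined were 10 genes of the endoplasmic reticulum (ER) chaperone machinery and the unfolded protein response (UPR), namely Hspa5, Hsp90b1, Calr, Pdia4, Pdia6, Xbp1, Atf4, Ddit3, Creb3l1 and Creb3l2. They were chosen by name from the 43346 genes in the count tables, and all 10 were among the 15467 genes that passed the filter on low counts and were tested. Their mRNA abundance was compared in notochord-derived cells (NDCs) from 4 litters at embryonic day 12.5 (E12.5) and 4 litters at postnatal day 0 (P0). All 8 samples came from mice carrying Shh-cre and the ROSA:YFP reporter, in which cells that expressed SHH and all their progeny become fluorescent, and each sample pooled the animals of 1 litter. At E12.5 the notochord was taken out intact under the microscope and lysed at once, while at P0 the nucleus pulposus (NP) cells were shaken out of the opened discs and sorted for YFP, so the effects of stage and of isolation method cannot be told apart.

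Proteins that are to be secreted fold in the ER with the help of chaperones such as BiP, GRP94 and calreticulin and of enzymes that form disulfide bonds. When unfolded protein accumulates, the membrane sensors IRE1, PERK and ATF6 start the UPR, in which the transcription factors XBP1, ATF4 and cleaved ATF6 raise chaperone, degradation and amino acid supply genes, and CHOP is induced under prolonged stress. The notochord and the NP both secrete a matrix rich in collagen and proteoglycan, and OASIS and BBF2H7, membrane-bound relatives of ATF6, are known for their roles in collagen secretion by bone and cartilage cells. Because IRE1 activates XBP1 by splicing its mRNA and PERK acts on ATF4 through translation, a gene-level read count does not measure the activity of either factor.

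The sequences upstream of the chaperone genes are shown because the ER stress response element (ERSE), the letters CCAAT, any 9 bases and CCACG, is the element through which ATF6 and XBP1 are known to act on this gene group. RefSeq promoters on GRCm38.p6, which run from 250 bases before to 50 bases after each gene's start, were matched for 9 of the 10 genes, all but Creb3l1. An exact ERSE on either strand was present in Hspa5, Hsp90b1, Calr and Pdia6, against 39 of all 32851 promoters (0.119%). Each line below reads 5' to 3' on the gene's strand and stops before the first base that Gencode M21 places in an exon. Capitals mark an exact ERSE, except in Hspa5, where they mark the UPRE core TGACGTG, and in Pdia4, where they mark an ERSE with 1 mismatch in CCACG.
Hspa5, chr2:34771870-34771969 (+): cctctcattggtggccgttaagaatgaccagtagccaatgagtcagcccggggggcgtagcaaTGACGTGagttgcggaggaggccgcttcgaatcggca
Hsp90b1, chr10:86705510-86705664 (-): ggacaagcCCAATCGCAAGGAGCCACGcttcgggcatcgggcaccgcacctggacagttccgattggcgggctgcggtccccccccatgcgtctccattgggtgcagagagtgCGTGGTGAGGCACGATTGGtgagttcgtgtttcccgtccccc
Calr, chr8:84846935-84847151 (-): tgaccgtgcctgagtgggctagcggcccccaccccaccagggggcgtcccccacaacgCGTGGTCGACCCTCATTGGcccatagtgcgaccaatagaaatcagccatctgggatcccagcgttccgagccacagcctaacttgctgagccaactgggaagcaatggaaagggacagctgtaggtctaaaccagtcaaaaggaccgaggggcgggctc
Pdia6, chr12:17266369-17266544 (+): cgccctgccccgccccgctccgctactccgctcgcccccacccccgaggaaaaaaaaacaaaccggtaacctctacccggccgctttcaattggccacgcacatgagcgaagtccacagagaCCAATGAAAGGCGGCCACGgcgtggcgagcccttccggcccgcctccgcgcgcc
Pdia4, chr6:47813513-47813732 (-): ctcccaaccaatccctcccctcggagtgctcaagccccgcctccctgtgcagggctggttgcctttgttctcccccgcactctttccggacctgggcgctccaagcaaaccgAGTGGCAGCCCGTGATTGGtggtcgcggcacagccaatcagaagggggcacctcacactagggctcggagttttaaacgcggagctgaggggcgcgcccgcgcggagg

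The ERSE of Hspa5, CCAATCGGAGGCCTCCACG, lies from 65 to 47 bases before the RefSeq start, a stretch that Gencode M21 already counts as exon. Hsp90b1 had 2 exact elements, from 212 to 194 bases before the start on the gene's strand and from 107 to 89 bases on the other strand. The element of Calr lies from 162 to 144 bases before the start on the other strand, and that of Pdia6 from 98 to 80 bases on the gene's strand. When 1 mismatch in CCACG was allowed, a choice made after the exact matches were seen, Pdia4 and Ddit3 also had a match, as did 328 of all promoters (0.998%). The UPRE core was found only in Hspa5 among the 9 genes and in 661 promoters (2.01%), and it does not overlap the ERSE. ERSE-II, the letters ATTGG, any base and CCACG, was in none of the 9 and in 12 promoters (0.0365%). Xbp1, Atf4 and Creb3l2 had none of these letters in the window. These matches are descriptions of sequence and not measured sites of binding.

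The libraries held between 4442775 and 8904050 reads counted on genes. On these unscaled totals 3 reads, taken as the smallest visible signal, equalled 0.337 to 0.675 CPM, the usual unit of read counts scaled to library size. All other CPM were computed on TMM-scaled library sizes, so this floor is only approximate for them. Log2 fold changes divide P0 by E12.5, and p-values come from edgeR's quasi-likelihood test with Benjamini-Hochberg adjustment over all genes tested. The notochord marker T was present in every litter, at 242 to 942 CPM at E12.5 and 574 to 2323 CPM at P0, while Noto stayed at or below 0.433 CPM. Both belong to a list of 11 notochord markers that moved in both directions. Of its 10 tested genes, 3 were called higher at P0 and 2 lower (30% and 20%, against 16.0% and 12.0% of all genes tested). Log2 fold changes in the list ranged from -7.14 to 2.97, so T does not stand for the whole list. Summed CPM of 14 leukocyte markers were 90.2 to 237 at E12.5, 709 in the P0 litter NPD30 and 6402 to 7466 in the other P0 litters. All 14 were called higher at P0, against 16.0% of all genes tested. A separate list of 10 neutrophil markers summed to 4.95 to 18.4 CPM at E12.5. At P0 it summed to 857, 924, 7962 and 1084 CPM in NPD26, NPD27, NPD28 and NPD30, so NPD30 was not the lowest litter for these. The 5 primitive erythroid markers summed to between 8136 and 32862 CPM at E12.5 and at most 60.9 CPM at P0, and 16.3% and 17.5% of all reads were ambiguous in the E12.5 litters NDP10.2 and NPD9.2, against 7.07% to 11.6% elsewhere. In bulk samples, fewer cells of a type and less RNA per cell cannot be told apart.

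Of the 10 genes, 2 passed the test at an adjusted p under 0.05, and both were lower at P0: the disulfide isomerase genes Pdia4 and Pdia6. Among all genes tested 4321 passed (27.9%), 2468 of them higher (16.0%) and 1853 lower (12.0%), beside 2 called, 0 called higher and 2 called lower among the 10. The total and the higher calls were thus no more than the background share, and the share called lower was above it but rests on 2 genes. In 3 of the 10 genes the values of the 2 stages did not overlap, as in 29.9% of all genes tested. The median log2 fold change of the 10 genes was 0.29 and that of all genes tested was 0.04. None of the 10 was called higher by DESeq2 or limma either, and at an unadjusted p under 0.05 edgeR had 1 higher, Ddit3. The number called was 2 in 7 of the 10 other settings. It was 0 without the litter NPD3, NPD26 or NPD28 and 1 without NDP10.2 or NPD30.

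**Figure D1:**
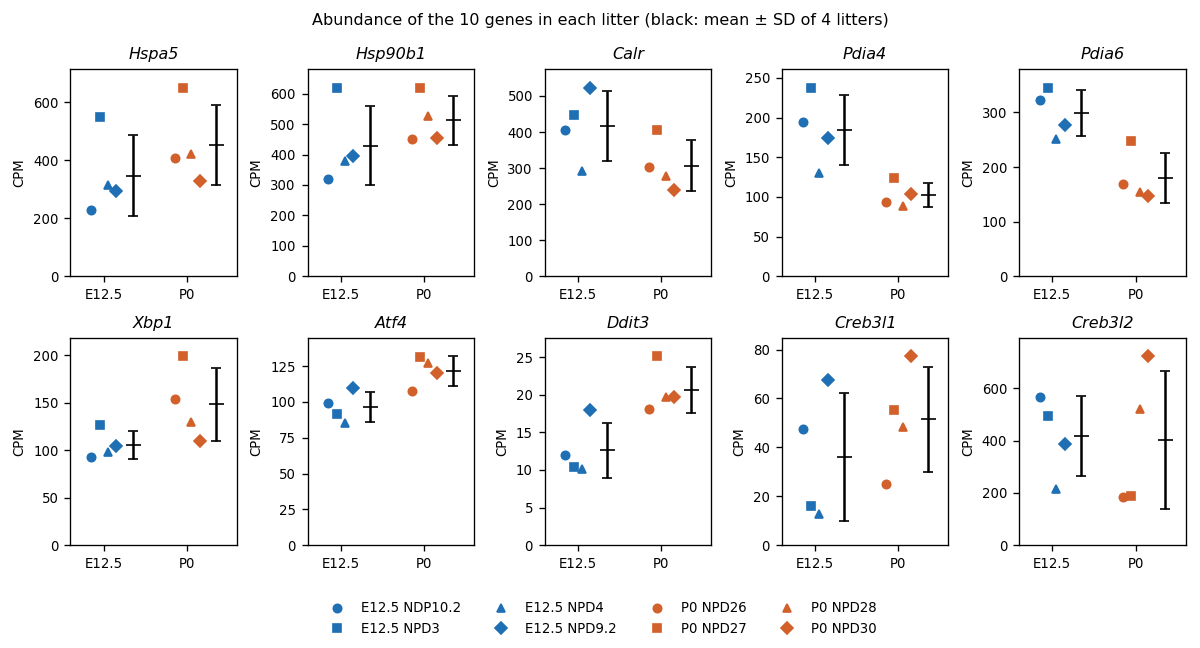
Abundance of the 10 genes in CPM (vertical axes, each starting at 0) in the 4 E12.5 litters (blue) and the 4 P0 litters (orange), with the mean and SD of each stage in black. Only Pdia4, Pdia6 and Ddit3 have stages that do not overlap, and the Ddit3 gap, from 18.0 to 18.1 CPM, is barely visible.

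Hspa5 encodes BiP, the Hsp70 chaperone of the ER that also holds the UPR sensors inactive (chromosome 2, 34771970 to 34777547, + strand, Gencode M21 on GRCm38). Its abundance was 229, 549, 316 and 294 CPM in NDP10.2, NPD3, NPD4 and NPD9.2 at E12.5 and 408, 649.9, 423 and 329.9 CPM in NPD26, NPD27, NPD28 and NPD30 at P0, an order of litters kept for every gene below. The stages overlapped, because NPD3 exceeded every P0 litter but NPD27. The log2 fold change was 0.38 ± 0.33 (SE, n = 4 litters per stage, edgeR quasi-likelihood adjusted p = 0.421), and its 95% confidence interval from -0.34 to 1.11 includes a doubling as well as a small decrease.

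Hsp90b1 encodes GRP94, the Hsp90 of the ER (chromosome 10, 86690209 to 86705509, - strand). It was at 321, 617, 379.7 and 395 CPM at E12.5 and 451, 619.6, 527 and 453 CPM at P0. Here too NPD3 and NPD27 were the highest litters of their stages and the stages overlapped. Its log2 fold change was 0.26 ± 0.27 (SE, edgeR quasi-likelihood adjusted p = 0.520, 95% interval -0.34 to 0.86), and it was 0.00 at 2 decimals with the E12.5 litters NDP10.2 and NPD9.2 left out. An opposite-strand pseudogene, 1810014B01Rik, covers 10.3% of the exonic bases of Hsp90b1, and whether counting used strand is not given in the sources used here.

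Calr encodes calreticulin, the soluble lectin chaperone that binds calcium and glycoproteins (chromosome 8, 84841850 to 84846934, - strand). Its values were 404, 448, 292 and 523 CPM at E12.5 and 303, 404, 277 and 239.8 CPM at P0. The P0 values lay mostly below those at E12.5, but NPD4 was as low as the P0 litters and NPD27 as high as NDP10.2. The difference was -0.45 ± 0.27 on the log2 scale (SE, edgeR quasi-likelihood adjusted p = 0.246, 95% interval -1.04 to 0.14).

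Pdia4 encodes ERp72, a protein disulfide isomerase that works together with BiP (chromosome 6, 47796141 to 47813430, - strand). It was at 194, 238, 130.4 and 175 CPM at E12.5 and 93.9, 123, 88.6 and 103 CPM at P0. Every P0 litter lay below every E12.5 litter, with NPD27 and NPD4 the nearest pair. Pdia4 mRNA was 1.80-fold lower at P0, which is -0.85 ± 0.24 on the log2 scale (SE, n = 4 per stage, edgeR quasi-likelihood adjusted p = 0.0222, 95% interval -1.38 to -0.32). The call was kept in 9 of 10 other settings and in 5 of 8 fits that left out a litter. It was lost at adjusted p = 0.0587 without the E12.5 litter NPD3, at 0.0578 without NPD26 and at 0.0540 without NPD28, with log2 fold changes of -0.74, -0.80 and -0.78.

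Pdia6 encodes the isomerase P5, which binds BiP and attenuates the sensors IRE1 and PERK (chromosome 12, 17266545 to 17284770, + strand). Its abundance was 322, 345, 252 and 278 CPM at E12.5 and 169.5, 247, 154 and 147 CPM at P0. The stages did not overlap, although NPD27 at P0 came within a few CPM of NPD4 at E12.5. Pdia6 mRNA was 1.67-fold lower at P0 (log2 fold change -0.74 ± 0.24 SE, edgeR quasi-likelihood adjusted p = 0.0441, 95% interval -1.28 to -0.20). This call held in 7 of 10 other settings and in only 2 of 8 fits that left out a litter, those without NPD4 and without NPD27. Over the 8 fits the adjusted p ran from 0.0248 to 0.0960 and the log2 fold change from -0.92 to -0.66.

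**Figure D2:**
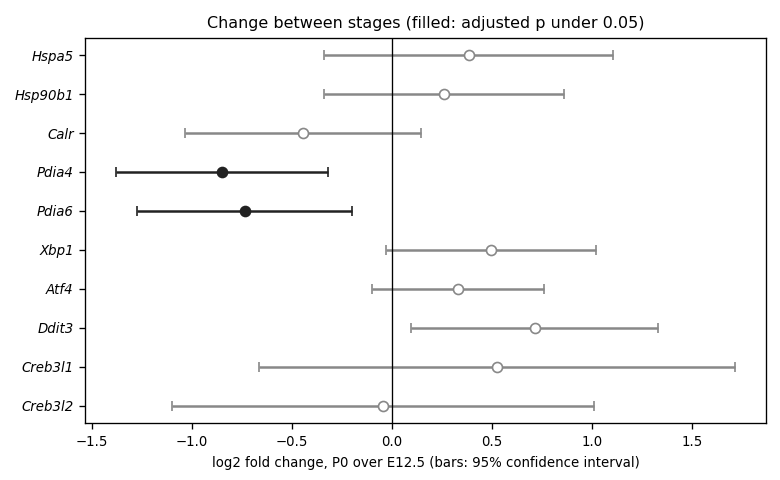
Log2 fold change of each of the 10 genes, P0 over E12.5 (horizontal axis), with 95% confidence intervals, and filled points where the edgeR adjusted p was under 0.05. Pdia4 and Pdia6 are the only filled points, at -0.85 and -0.74, and the interval of Creb3l1 is the widest.

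Reads of the chaperone genes were also divided by the Hspa5 reads of the same litter, which removes any effect of library scaling. This ratio was chosen after the values above were seen and is given without a test. Pdia4 gave 0.849, 0.433, 0.413 and 0.595 reads per Hspa5 read at E12.5 and 0.230, 0.190, 0.210 and 0.313 at P0, without overlap. Pdia6 ranged between 0.629 and 1.41 at E12.5 but only 0.365 to 0.447 at P0, and Calr between 0.816 and 1.78 at E12.5 but only 0.622 to 0.743 at P0, again without overlap. Hsp90b1 was different, with E12.5 ratios of 1.12 to 1.40 and P0 ratios of 0.953 to 1.37, which overlapped. In these 8 litters the reads of Hspa5 and Hsp90b1 therefore stayed in a similar proportion, while those of Calr, Pdia4 and Pdia6 formed a smaller proportion at P0. How many of all genes tested would not overlap as a ratio to Hspa5 was not counted, and 29.9% did not overlap in CPM. Calr overlapped in CPM and was not called, so its separation appeared only after division by Hspa5.

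**Figure D3:**
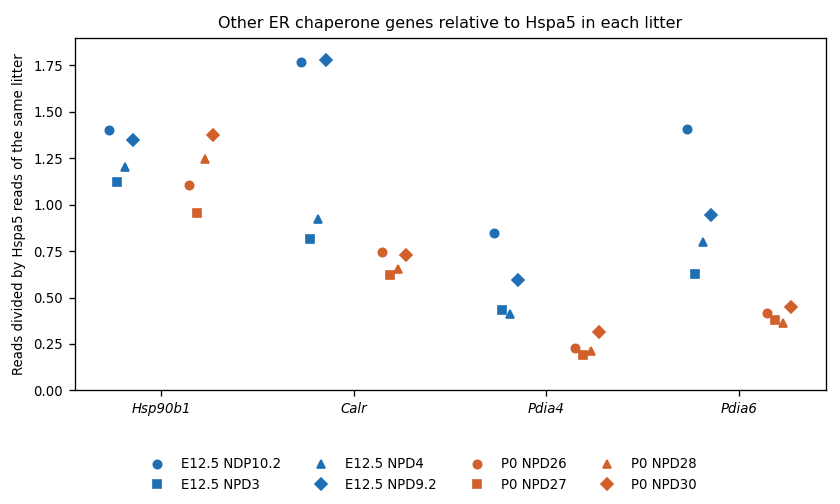
Reads of Hsp90b1, Calr, Pdia4 and Pdia6 divided by the Hspa5 reads of the same litter (vertical axis, starting at 0), with 1 symbol per litter, E12.5 in blue and P0 in orange. The Hsp90b1 ratios overlap between stages, and for the other 3 genes every P0 point lies below every E12.5 point.

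Within each stage the litters NPD3 and NPD27 had the highest values of Hspa5, Hsp90b1, Pdia4, Pdia6 and Xbp1. NPD27 was also the highest P0 litter for Atf4 and Ddit3, but NPD3 was not the highest E12.5 litter for these. By a rule set on likeness of profile, the tested gene nearest to Hspa5 over the 8 libraries was Hsp90b1, with a root mean square difference of 0.177 between centred log2 CPM values. It was followed by Zcchc9 at 0.216, a gene without a symbol (ENSMUSG00000094518.1) at 0.218, Umad1 at 0.219 and Fndc3a at 0.227.

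Among the transcription factors of the UPR, Xbp1, which IRE1 activates (chromosome 11, 5520659 to 5525893, + strand), was at 92.9, 126, 97.8 and 104 CPM at E12.5 and 154, 199, 130.0 and 109.8 CPM at P0. Of the P0 litters, 3 exceeded every E12.5 litter, and NPD30 lay within the E12.5 range. A log2 fold change of 0.49 ± 0.24 (SE) did not pass the test (edgeR quasi-likelihood adjusted p = 0.149, 95% interval -0.03 to 1.02). NPD30 was also the P0 litter with the fewest leukocyte reads. The 10 B lineage and plasma cell markers, a lineage known for high Xbp1, summed to 49.2 to 365 CPM at E12.5 and 168, 164, 492 and 105 CPM at P0. Of 5 tested, 3 were called higher (60% against 16.0% of all genes tested), and up to 7 of the 10 were at 0 in an E12.5 litter. The part of such cells in the Xbp1 values was not tested.

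The genes nearest to Xbp1 in profile were Ptcd2 at 0.108, Vps35l at 0.144, Chkb at 0.146, Zcchc9 at 0.148 and Rsrp1 at 0.152, as root mean square differences over the 8 libraries.

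Atf4, the factor that PERK and other stress kinases induce through translation (chromosome 15, 80255184 to 80257541, + strand), was at 99.5, 91.7, 85.5 and 109 CPM at E12.5 and 107, 131, 127 and 120.1 CPM at P0. Relative to its mean, it varied least among the litters of each stage of the 10 genes, and the stages overlapped only through NPD9.2 and NPD26. The difference was 0.33 ± 0.20 on the log2 scale (SE, edgeR quasi-likelihood adjusted p = 0.238, 95% interval -0.10 to 0.76).

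Ddit3 encodes CHOP, the factor tied to cell death under lasting ER stress (chromosome 10, 127290774 to 127296288, + strand). It was the least abundant of the 10, with 12.0, 10.3, 10.15 and 18.0 CPM at E12.5 and 18.1, 25.1, 19.7 and 19.7 CPM at P0, from 51 to 174 reads per library. All P0 values lay above all E12.5 values, by a margin of a fraction of a CPM over NPD9.2. The log2 fold change of 0.71 ± 0.28 (SE) had an edgeR quasi-likelihood adjusted p of 0.0811, although its unadjusted 95% interval, 0.10 to 1.33, excludes 0. Without NPD9.2 it was 0.89 with an adjusted p of 0.0453, and it was not called in any other setting. Exons of Mars on the opposite strand cover 3.97% of the exonic bases of Ddit3. Of the 16 dissociation and immediate-early genes, 7 of 14 tested were called higher at P0 (50% against 16.0% of all genes tested) and 0 lower. Their summed CPM lay in the range 302 to 543 at E12.5 against 930.1 to 1604 at P0, with 2 of the 16 at 0 in NDP10.2. Their part in the Ddit3 values was not tested.

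Creb3l1 encodes OASIS, a factor known for its role in collagen secretion by osteoblasts (chromosome 2, 91982328 to 92024502, - strand). It was at 47.7, 15.8, 12.8 and 67.4 CPM at E12.5 and 25.2, 55.1, 48.1 and 77.2 CPM at P0. The E12.5 litters split, with NDP10.2 and NPD9.2 at the level of the P0 litters and NPD3 and NPD4 below all of them. With this spread, the log2 fold change was 0.53 ± 0.53 (SE, edgeR quasi-likelihood adjusted p = 0.506, 95% interval -0.66 to 1.71). NDP10.2 and NPD9.2 are the litters with the largest shares of ambiguous reads and the largest sums of primitive erythroid markers, at 16147 and 32862 CPM. With both left out, which leaves 2 E12.5 litters, the log2 fold change was 1.81 and Creb3l1 was called (edgeR quasi-likelihood adjusted p = 0.0400). Because they are also the highest E12.5 litters for Creb3l1, leaving them out had to raise this fold change. The call can therefore not be read as evidence of a rise.

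The same litters were highest at E12.5 for the type I collagen genes. Col1a1 was at 1131, 365, 235 and 1272 CPM at E12.5 and 2845, 6889.7, 6643 and 11487 CPM at P0, so within each stage Creb3l1 and Col1a1 ranked the litters in the same order. Unlike Creb3l1, Col1a1 was called higher at P0 (log2 fold change 3.21 ± 0.64 SE, edgeR quasi-likelihood adjusted p = 0.00402). The 10 osteoblast markers summed to 217, 334, 57.1 and 173 CPM at E12.5 and 1116, 1251, 1158 and 1931 CPM at P0. At P0 this sum ranked the litters as Creb3l1 did. At E12.5 it did not, being highest in NPD3, where Creb3l1 was at 15.8 CPM. Of these markers 7 of 8 tested were called higher (87.5% against 16.0% of all genes tested), and between 2 and 5 of the 10 were at 0 in each E12.5 litter, Dmp1 in all 4. The part of osteoblast RNA in the Creb3l1 values was not tested. The genes nearest to Creb3l1 in profile were Cpz at 0.267, Acbd4 at 0.303, Ripor3 at 0.315, Adamts2 at 0.345 and Adamtsl4 at 0.345.

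Creb3l2 encodes BBF2H7, the relative of OASIS known from chondrocytes, where it acts on Sec23a (chromosome 6, 37327255 to 37442146, - strand). It was at 568, 493, 216 and 389 CPM at E12.5 and 184, 189, 520.1 and 722 CPM at P0. The P0 litters formed a low pair, NPD26 and NPD27, and a high pair, NPD28 and NPD30, and these enclosed the whole E12.5 range. The log2 fold change was -0.05 ± 0.48 (SE, edgeR quasi-likelihood adjusted p = 0.956), and the 95% interval from -1.10 to 1.01 leaves room for a doubling or a halving of Creb3l2 mRNA. Its sign turned when NDP10.2, NPD3, NPD26 or NPD27 was left out, with values from 0.01 to 0.21.

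At E12.5, the litters ranked in the same order by Creb3l2 as by the cartilage collagen gene Col2a1, at 5423, 3330.2, 1336 and 2675 CPM, and by the notochord factors Sox9 and T and the keratin gene Krt8. At P0 Col2a1 was at 1031, 923, 3473 and 3664 CPM, Sox9 at 134, 128, 258 and 524 CPM and T at 1007, 574, 1372 and 2323 CPM. NPD28 and NPD30 were thus the 2 highest P0 litters for Creb3l2, Col2a1, Sox9 and T alike, and only NPD26 and NPD27 changed places. These values share libraries and were picked from the marker lists after they were seen, so they are a description. The genes nearest to Creb3l2 in profile were Ptprd at 0.185, Cdon at 0.204, Oaf at 0.210, Fkbp9 at 0.210 and Gfpt2 at 0.211. There were 11.9, 31.2, 16.9 and 5.77 reads of Creb3l2 per read of Creb3l1 at E12.5 and 7.29, 3.43, 10.8 and 9.35 at P0, so Creb3l2 had more reads in every litter.

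**Figure D4:**
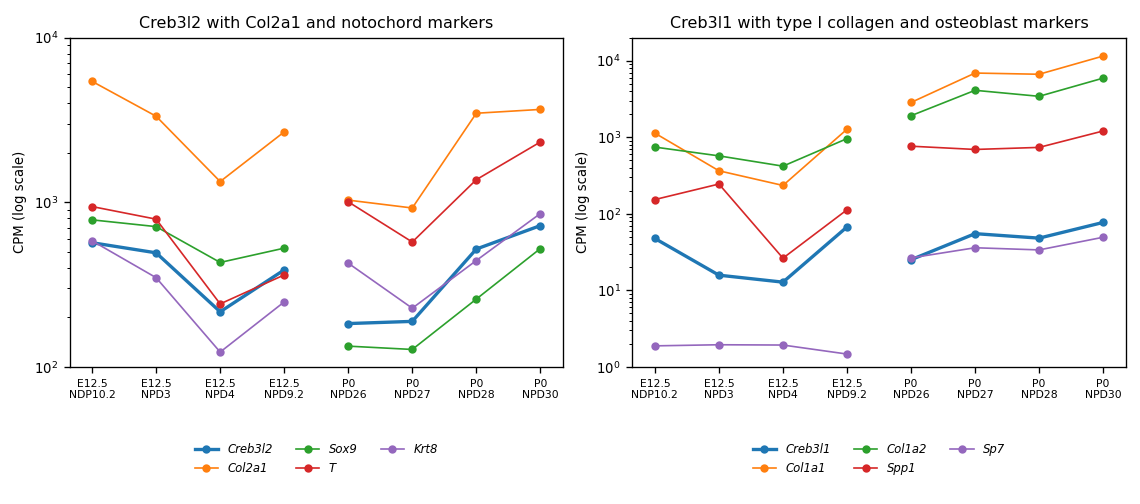
CPM on log axes in each litter for Creb3l2 with Col2a1, Sox9, T and Krt8 (left) and for Creb3l1 with Col1a1, Col1a2, Spp1 and Sp7 (right). Lines only join the points of a gene within a stage. Creb3l2 and Col2a1 are high in NDP10.2 at E12.5 and in NPD28 and NPD30 at P0, and Creb3l1 and Col1a1 are high in NDP10.2 and NPD9.2 at E12.5 and in NPD30 at P0.

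Levels of different genes were compared as RPKM, the CPM per kilobase of exon. At E12.5 the order of mean RPKM was Calr at 145 ± 33.5, Hsp90b1 at 106 ± 32.2, Hspa5 at 82.0 ± 33.0, Pdia6 at 79.9 ± 11.2, Pdia4 at 76.8 ± 18.5, Creb3l2 at 57.2 ± 20.9, Atf4 at 40.9 ± 4.39, Xbp1 at 32.4 ± 4.50, Creb3l1 at 13.8 ± 10.1 and Ddit3 at 7.37 ± 2.13 (SD, n = 4). Ranges over litters overlapped between all neighbours in this order except Xbp1 and Creb3l1. At P0 the RPKM order was Hsp90b1 at 127 ± 19.8, Hspa5 at 107 ± 32.6, Calr at 106 ± 24.5, Creb3l2 at 55.4 ± 36.3, Atf4 at 51.5 ± 4.39, Pdia6 at 48.0 ± 12.3, Xbp1 at 45.6 ± 11.8, Pdia4 at 42.6 ± 6.36, Creb3l1 at 19.7 ± 8.23 and Ddit3 at 12.0 ± 1.79. At P0, only Pdia4 and Creb3l1 were neighbours whose ranges did not overlap. Calr ranked 1st at E12.5 and 3rd at P0, and Pdia4 moved from the 5th place to the 8th.

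The other genes of the pathway were counted in 7 lists by function, which held 143 tested genes besides the 10. Of these, 28 were called (19.6% against 27.9% of all genes tested), 21 of them higher at P0 (14.7% against 16.0%) and 7 lower (4.90% against 12.0%). The count is sensitive to single litters: it was between 14 and 33 when a litter was left out, with 17 without NDP10.2, 16 without NPD9.2, 18 without NPD26 and 14 without NPD27. With upper quartile scaling, which lowered the log2 fold change of all genes by a median of 0.145, 25 were called and 14 of them higher, so the share of higher calls went from 75.0% to 56.0%, as it went from 57.1% to 47.5% over all genes tested.

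Among the sensors and the proteases that activate them, 1 of 6 tested genes was called (16.7% against 27.9% of all genes tested). Atf6, whose product is cut in the Golgi to become a transcription factor, was higher at P0 by 0.81 ± 0.25 on the log2 scale (SE, edgeR quasi-likelihood adjusted p = 0.0309), at 36.5 to 48.9 CPM at E12.5 and 70.9, 86.7, 90.2 and 48.5 CPM at P0. NPD30 lay within the E12.5 range, and the call was kept in 1 of 8 fits that left out a litter and lost with upper quartile scaling. Eif2ak3, which encodes PERK, differed by 0.66 ± 0.30 (adjusted p = 0.130) and Ern1, which encodes IRE1, by 0.43 ± 0.34 (adjusted p = 0.391) on the same scale and in the same edgeR test, and neither was called. Of the CREB3 family, Creb3 was the 1 of 4 tested genes that was called (log2 fold change 0.77 ± 0.26 SE, edgeR quasi-likelihood adjusted p = 0.0449), and it too was called in 1 of 8 fits without a litter. This share of 25.0% is close to the 27.9% called over all genes tested.

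In the list of degradation genes (ER-associated degradation), 6 of 21 tested genes were higher at P0 and 0 lower, or 28.6% against 16.0% higher over all genes tested. Counted in either direction, 28.6% of the list was called, close to the 27.9% of all genes tested. The log2 fold change was above 0 in 18 of the 21, with a median of 0.47, where 51.6% of all genes tested were above 0. Herpud1, a UPR target that organizes the degradation complex, was at 36.6, 32.2, 28.3 and 32.7 CPM at E12.5 and 84.4, 94.7, 87.9 and 52.3 CPM at P0 (log2 fold change 1.30 ± 0.24 SE, edgeR quasi-likelihood adjusted p = 0.00279). Its stages did not overlap, and NPD30 was the P0 litter nearest to E12.5. The summed CPM of the 22 genes in the list ran from 979 to 1160 at E12.5, and at P0 it was 1286 in NPD30, the litter with 709 CPM of leukocyte markers, and 1539 to 1651 in the other litters, with 6402 to 7466 CPM of those markers. The part of leukocytes in these values was not tested. Without NPD30, 7 genes of the list were called higher, but that fit keeps only P0 litters high in those markers and cannot test that part. Edem1, a lectin that picks misfolded glycoproteins, was higher by 1.31 ± 0.31 (adjusted p = 0.00887) and Ube2j1, a ubiquitin-conjugating enzyme of the ER membrane, by 0.99 ± 0.20 (adjusted p = 0.00438) on the log2 scale in the same edgeR test. These 3 genes were called in all 8 fits that left out a litter. Edem1 too was nearest to E12.5 in NPD30, at 43.8 CPM against 42.0 CPM in NPD3 and 69.3 to 112 CPM in the other P0 litters. DESeq2 and limma each called 8 of the list higher and 0 lower, and at an unadjusted p under 0.05 edgeR had 9 higher and 1 lower. With upper quartile scaling 4 genes were called higher and 1 lower.

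Of the 25 ER chaperones and co-chaperones other than the 10 genes, 5 were higher and 3 lower, with a median log2 fold change of -0.01. That is 20% higher and 12% lower, against 16.0% and 12.0% of all genes tested, so both shares were near the background. The BiP nucleotide exchange factor Sil1 (log2 fold change 1.30 ± 0.27 SE, adjusted p = 0.00529), the BiP co-chaperone Dnajb9 (1.04 ± 0.30, adjusted p = 0.0224) and Cnpy3 (1.0 ± 0.28, adjusted p = 0.0199) had the largest increases among the genes called by edgeR's quasi-likelihood test. Sdf2l1 had a larger value but was not called (1.42 ± 0.54, adjusted p = 0.0763). Sil1 was called in all 8 fits without a litter, and Dnajb9 and Cnpy3 in 4. The lower genes were Serpinh1, the collagen chaperone HSP47 (-1.19 ± 0.34, adjusted p = 0.0222), Cnpy4 (-0.96 ± 0.26, adjusted p = 0.0168) and Dnajc1 (-0.79 ± 0.21, adjusted p = 0.0159). Serpinh1 was at 663, 496, 293 and 639 CPM at E12.5 and 139, 207, 251 and 316 CPM at P0, with an overlap between NPD4 and NPD30. Its call was kept in 4 of 8 fits without a litter. The list's 8 calls became 5 without NDP10.2, 3 without NPD9.2, 2 without NPD26 and 2 without NPD27.

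Of the 16 tested disulfide isomerases and ER oxidases other than Pdia4 and Pdia6, only Tmx3, a membrane-bound member, was called, and it was higher (0.88 ± 0.30 on the log2 scale, edgeR quasi-likelihood adjusted p = 0.0462, called in 1 of 8 fits without a litter). The list thus had 6.25% called, against 27.9% of all genes tested, and its median log2 fold change was -0.17. In this list 0 genes were called lower by edgeR, DESeq2 or limma, and the isomerase gene Pdia5 and the peroxidase gene Gpx7 were the 2 with a negative log2 fold change at an unadjusted edgeR p under 0.05. Without the P0 litter NPD30, edgeR called 3 genes of the list lower, Pdia5, Gpx7 and Gpx8, and 0 higher.

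**Figure D5:**
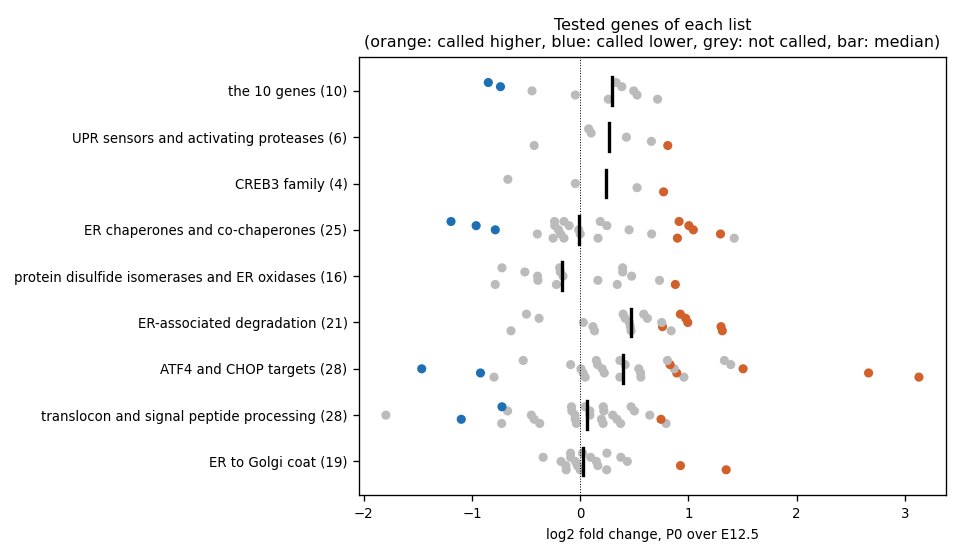
Log2 fold change, P0 over E12.5 (horizontal axis), of each tested gene in the lists named at the left, with the number tested in brackets. Orange and blue points were called higher and lower at P0, grey points were not called, and the black bar is the list's median, which is 0.47 for ER-associated degradation and -0.17 for the disulfide isomerases.

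Among 28 tested targets of ATF4 and CHOP, 5 were higher and 2 lower, with a median log2 fold change of 0.39. That is 17.9% higher and 7.14% lower, against 16.0% and 12.0% of all genes tested, so the higher calls were near the background share. The stress regulator Nupr1 (3.13 ± 0.51 SE, adjusted p = 0.00155), the transcription factor Cebpb (2.66 ± 0.46, adjusted p = 0.00212) and the amino acid transporter subunit Slc3a2 (1.50 ± 0.37, adjusted p = 0.0106) had the largest increases among the genes called by edgeR's quasi-likelihood test. Nupr1 was low at E12.5, at 1.42, 4.88, 1.21 and 2.21 CPM, so the size of its increase rests on few reads. At P0 it was at 18.7, 27.7, 10.7 and 27.9 CPM. Slc3a2 overlapped between stages, at 62.3 CPM in NDP10.2 and 62.2 CPM in NPD30. The 2 lower genes both make serine, namely Phgdh (-1.47 ± 0.31, adjusted p = 0.00513) and Psat1 (-0.92 ± 0.26, adjusted p = 0.0221). Cebpb was at 13.0 CPM in NPD30 and at 39.4 to 41.7 CPM in the other P0 litters. NPD30 had the lowest P0 sum of the 14 leukocyte markers. Its neutrophil marker sum of 1084 CPM, however, was above those of NPD26 and NPD27, at 857 and 924 CPM. The part of leukocytes in these values was not tested. Atf3, which is also an immediate-early gene, had a log2 fold change of 1.33 ± 0.75 (SE, edgeR quasi-likelihood adjusted p = 0.218).

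Of the 28 tested genes for entry into the ER, Tram1 was higher (0.75 ± 0.20 SE on the log2 scale, adjusted p = 0.0187) and Tram2 (-1.10 ± 0.32, adjusted p = 0.0257) and Ssr2 (-0.72 ± 0.24, adjusted p = 0.0477) were lower by edgeR's quasi-likelihood test. These were 10.7% of the list, against 27.9% called over all genes tested. Over the 8 fits without a litter, Tram1 was called in 6, Tram2 in 4 and Ssr2 in 1. Of the 19 genes of the coat that carries cargo from the ER to the Golgi, Mcfd2 (1.35 ± 0.31, adjusted p = 0.00822) and Mia2 (0.93 ± 0.25, adjusted p = 0.0188) were higher in the same test and 0 were lower, also by DESeq2, by limma and at an unadjusted p under 0.05. Here 10.5% were called, against 27.9% of all genes tested. Sec23a, the target of BBF2H7 in cartilage, was not among those called. Of the 8 fibrillar collagen genes, the main cargo, Col1a1 and Col1a2 were higher (3.21 and 2.51) and Col11a1 and Col3a1 lower (-1.78 and -1.99, all as log2 fold changes). These were 50% of that list, against 27.9% called over all genes tested.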

How the data were processed

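RNA-Seq was analysed from 8 libraries, 4 litters each at E12.5 and P0, grouped by their titles. The authors sequenced TotalScript libraries (single-end reads), aligned them with STAR 2.4.0j to GRCm38, and deposited raw htseq-count counts per Gencode M4 gene, without normalization. The submitters' processing notes also name mm9, and the strand setting is not given in the sources used here. The 10 genes and all gene lists were chosen with earlier results of these data known. Counts were tested with edgeR 4.0.16 in R 4.3.3 (TMM, filterByExpr with minimum count 10 and total 15, robust quasi-likelihood F-test, Benjamini-Hochberg over 15467 genes), and calls were made at adjusted p-values under 0.05. The SE is the size of the log2 fold change divided by the square root of F. Log2 CPM used a prior count of 2. RPKM and positions used Gencode M21 exons, a later annotation than the one counted on. All 10 genes were named, with the 3 largest rises and falls among called genes of each list, Creb3, Ern1, Eif2ak3 and Atf6, and for Hspa5, Xbp1, Creb3l1 and Creb3l2 the 5 genes with the nearest profiles. The genes set beside Creb3l1, Creb3l2 and Serpinh1 for their litter order, Sec23a, Atf3, Sdf2l1, Pdia5, Gpx7, Gpx8, T, Noto and Dmp1 were chosen after values were seen. Alternatives were DESeq2 1.42.0, limma 3.58.1 (voom), other normalizations, filters and dispersions, downsampling, and litters left out. The code was tested on simulated data, where edgeR recovered 7% of 2-fold and 76% of 4-fold changes. A gene that was not called may therefore still differ between stages. Of the simulated calls, 3.49% with edgeR, 19.1% with DESeq2 and 2.74% with limma fell on unchanged genes. Floors of 3 counts and intervals on them cover counting error only.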

Additional observations from a re-analysis of the deposited data

Results flagged for a closer look

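In the P0 litter NPD30, Cebpb lay far from the other 3 litters of its stage, at a log2 CPM of 3.74 against 5.31 to 5.39 in the others, and was the only 1 of 76 sets of 4 litters whose gap passed Dixon's 95% critical value. Chance alone passes about 1 set in 20. The 14 leukocyte markers summed to 709 CPM in NPD30 and to 6402 to 7466 CPM in the other P0 litters. The 10 neutrophil markers summed to 1084 CPM in NPD30, against 857, 924 and 7962 CPM in NPD26, NPD27 and NPD28. The part of leukocytes in this Cebpb value was not tested.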

How the results depend on the processing

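The 2 calls among the 10 genes became 1 with no filter, 1 with at least 10 counts in every sample and 1 (Creb3l1, not Pdia4 or Pdia6) without the E12.5 litters NDP10.2 and NPD9.2, and ranged from 0 to 2 over the fits that left out 1 litter. The other settings called 2. NDP10.2 and NPD9.2 were the E12.5 litters with the most Creb3l1, so leaving them out had to raise its fold change. Pathway list calls were 28 in the main setting, 12 without that pair (a setting added for these lists after seeing the data) and 14 to 33 over the fits without 1 litter. Genes called overall were 2581 of 16971 tested without the pair, which leaves 2 E12.5 litters. The log2 fold change of Hsp90b1 turned to -0.00019 and that of Creb3l2 to 0.15 without the pair, and that of Creb3l2 ran from -0.53 to 0.21 over the fits without 1 litter, where 0.097, 0.011, 0.208 and 0.201 were above 0. The other 8 genes kept their direction in all 18 alternatives. Which property of the pair moves these values was not tested. No paired analysis was possible because litters of the 2 stages share no number. With 4 litters a stage, a typical gene had an SE of 0.36 on the log2 scale, against 0.20 to 0.53 among the 10 genes. Ddit3 had the fewest reads, and its log2 fold change was 0.81 (edgeR adjusted p = 0.0640) with counts downsampled to the smallest library.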
